A study of Homo sapiens with 8 samples.

Results

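The genes of the nuclear pore and the nuclear envelope were followed through hTERT-RPE1 cells, a telomerase-immortalized human line from retinal pigment epithelium, in interphase and in mitosis, with and without immunoprecipitation (IP) of the RNA-binding protein hnRNP U. Members were taken by name: every gene whose symbol starts with NUP and a digit, plus RANBP2, TPR, POM121, NDC1, AAAS, SEH1L, SEC13, RAE1, AHCTF1, the lamins LMNA, LMNB1 and LMNB2, and EMD, TMPO and BANF1. This gave 35 of the 13471 genes of the deposited hg38 gene table. LBR, which the list also names, was not analysed here, and one of the 35, NUP50-AS1, is a non-coding RNA that lies beside NUP50 and codes for no pore protein. Interphase cells had been kept for 24 h in 2 mM thymidine, an excess of the nucleoside that stops DNA replication. Mitotic cells had the same 24 h in 2 mM thymidine, then 6 h without it and a night in STLC (S-trityl-L-cysteine), which blocks the mitotic kinesin Eg5. Each phase had 2 libraries without IP and 2 from an IP with the antibody 3G6 against hnRNP U, so 8 libraries in 4 groups, all from rRNA-depleted RNA of a cleared detergent lysate of 1 cell line. Thymidine was thus common to all groups, and phase, release and STLC cannot be told apart. A control-antibody IP was not analysed here, and no source says whether replicates came from separate cultures, so p-values below measure the spread between these libraries, which may be technical.

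The nuclear pore complex is a ring-shaped channel through the nuclear envelope, built from many copies of a set of proteins called nucleoporins. An outer ring (the Y complex) and an inner ring form its scaffold, a few membrane proteins anchor it, a mesh of flexible proteins fills the channel, and filaments reach into the cytoplasm and form a basket on the nuclear side. The lamins line the inner membrane, where proteins such as emerin and the TMPO product hold chromatin. When human cells enter mitosis, pores and lamina are taken apart, and they are rebuilt on the chromosomes at its end. hnRNP U, also called SAF-A, is an abundant nuclear protein that binds RNA and DNA.

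Replicates of a group differed over all genes by a log2 SD of 0.21 to 0.29, and for the members the median replicate difference was 0.12 to 0.15. Total fragments per library are unknown. A rough relative depth was read from FPKM values below 1. It was the commonest ratio of the value in interphase without IP, replicate 1, to the value in the library. It lay between 0.638 and 1.188, both ends being mitotic IP libraries. The low end is uncertain, since its commonest ratio held 55 genes and the next 51. FPKM (fragments scaled to transcript length and library size) are shares of a library, and the 10 highest genes took 58.4% to 63% of all FPKM where no IP was made but 12.4% to 20.6% in the 4 IP libraries. Of the 8 pigment epithelium markers looked for, MITF and OTX2 were present at 3.33 to 33.2 FPKM, PMEL and LRAT stayed at or below 0.47 FPKM, and RPE65, BEST1, RLBP1 and TYR were not analysed here. The 5 G2 and mitosis markers (CCNB1, PLK1, CDC20, AURKA, CENPE) summed to 109 and 112 FPKM in interphase and to 416 and 448 FPKM in mitosis without IP, and all 5 rose, while of the 3 S phase markers CCNE2 and CDC6 fell and MCM10 was not analysed here.

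All 35 members had a value above 0 in all 8 libraries, as had every gene of the deposited table. Their median level over the 8 libraries was 20.1 FPKM, against 7.64 FPKM for all genes. TMPO, which encodes the lamina-associated LAP2 proteins, had the highest mean level, 106 FPKM. LMNA, the gene of lamins A and C, followed with 98.2 FPKM and NDC1, a membrane anchor of the pore, with 96.7 FPKM, and the libraries of these genes overlapped, so their order lies within the spread. At the low end stood the membrane anchors NUP210 with a mean of 2.29 FPKM and POM121 with 2.6 FPKM. The rows of near-identical copies held little: RGPD4, RGPD5 and RGPD8, copies of RANBP2, reached at most 0.315 FPKM, but POM121C was at 1.01 to 2.73 FPKM, close to POM121 itself, so the split of reads between them is uncertain. The deposited intervals of BANF1, NUP188, NUP62, NUP88, NUP98, POM121 and TMPO overlap another gene's row, and how reads in such overlaps were assigned is not given in the sources used here.

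**Figure D1:**
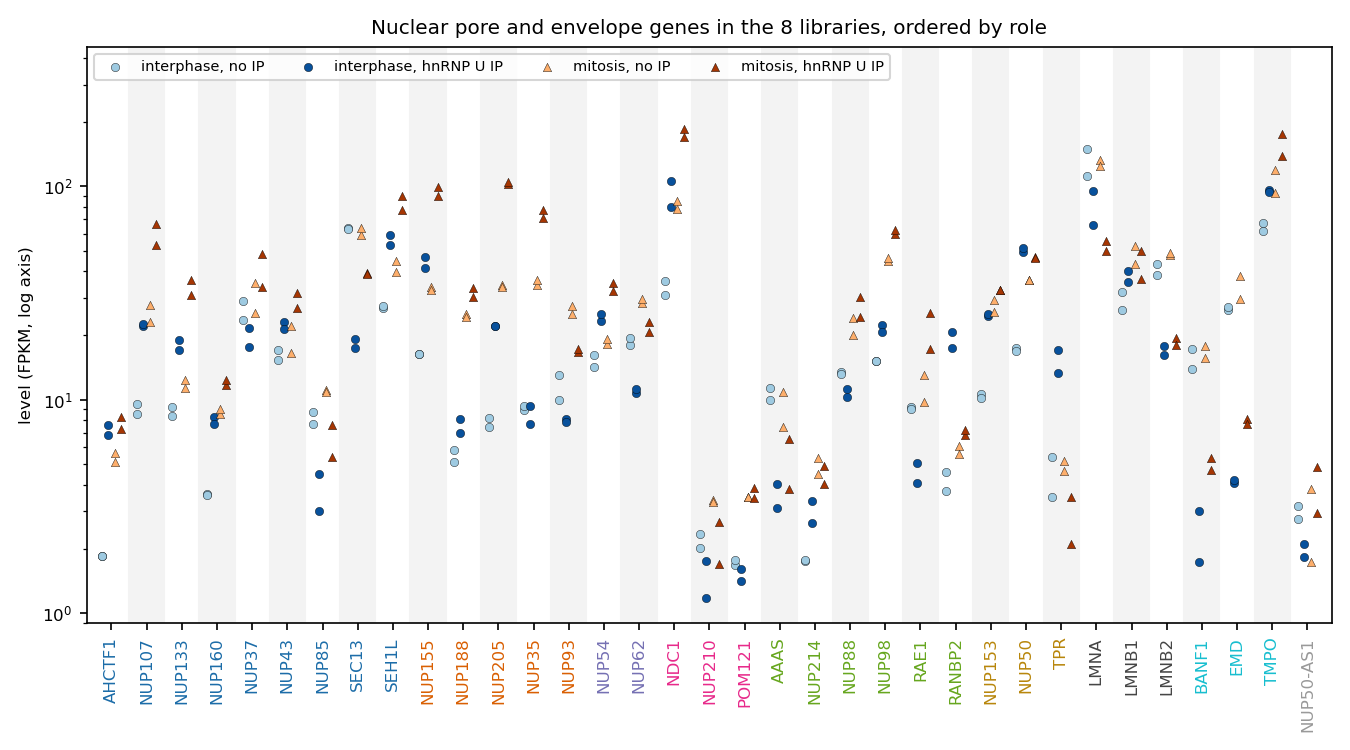
Level of each of the 35 genes in FPKM (log axis) in each of the 8 libraries, with genes ordered and coloured by role (outer ring, inner ring, central channel, membrane anchors, cytoplasmic side, nuclear basket, lamins, inner membrane, non-coding RNA). Circles are interphase and triangles mitosis, pale without IP and dark with IP: the inner ring genes NUP205 and NUP35 stand highest in the mitotic IP, and EMD and BANF1 are lower in both IP groups than in both groups without IP.

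The first comparison asked how the RNA of these genes differed between mitosis and interphase without IP. Most pore genes were higher in mitosis: by limma, 22 of 35 rose and 0 fell at a Benjamini-Hochberg adjusted p below 0.05, while 26.2% of all genes rose and 25.5% fell. At an unadjusted p below 0.05 limma also found 0 members lower. The median log2 fold change of the members, on the log2(FPKM + 1) scale used for all fold changes here, was 0.61, against -0.00 over all genes. All 22 rose in both replicate pairs. A call from 2 libraries a group leaves little room for pairs of opposite sign, so such agreement is no separate support. In bulk RNA, a change in the number of cells of a kind and a change in RNA per cell cannot be told apart.

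The inner ring, which forms the core of the scaffold around the channel, rose as a whole: 5 of 5 genes, with log2 fold changes from 0.98 (NUP155) to 2.00 (NUP188) and a median of 1.85. NUP205 (chr7:135557919-135648757, plus strand, GENCODE 29, GRCh38), a large scaffold protein, was at 7.43 and 8.24 FPKM in interphase and 34.6 and 33.9 FPKM in mitosis. It rose 4.37-fold (log2 fold change 2.00, SE 0.09, limma adjusted p = 1.95e-06). NUP188 (chr9:128947699-129007096, plus strand), the paralog of NUP205, went from 5.78 and 5.11 FPKM to 25.1 and 24.5 FPKM, 4.55-fold (log2 fold change 2.00, SE 0.11, limma adjusted p = 5.80e-06). NUP35 (chr2:183117513-183161680, plus strand), the small inner ring protein also known as NUP53, was at 8.94 and 9.34 FPKM in interphase and at 34.5 and 36.5 FPKM in mitosis, with a log2 fold change of 1.85 (SE 0.11). In these 3 genes each mitotic library was more than 3 times any interphase library. NUP155 (chr5:37288137-37371181, minus strand), which links the inner ring to the membrane, was at 16.4 FPKM in both interphase libraries and at 33.9 and 32.6 FPKM in mitosis, and NUP93, which holds the ring together, rose by a log2 fold change of 1.14.

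**Figure D2:**
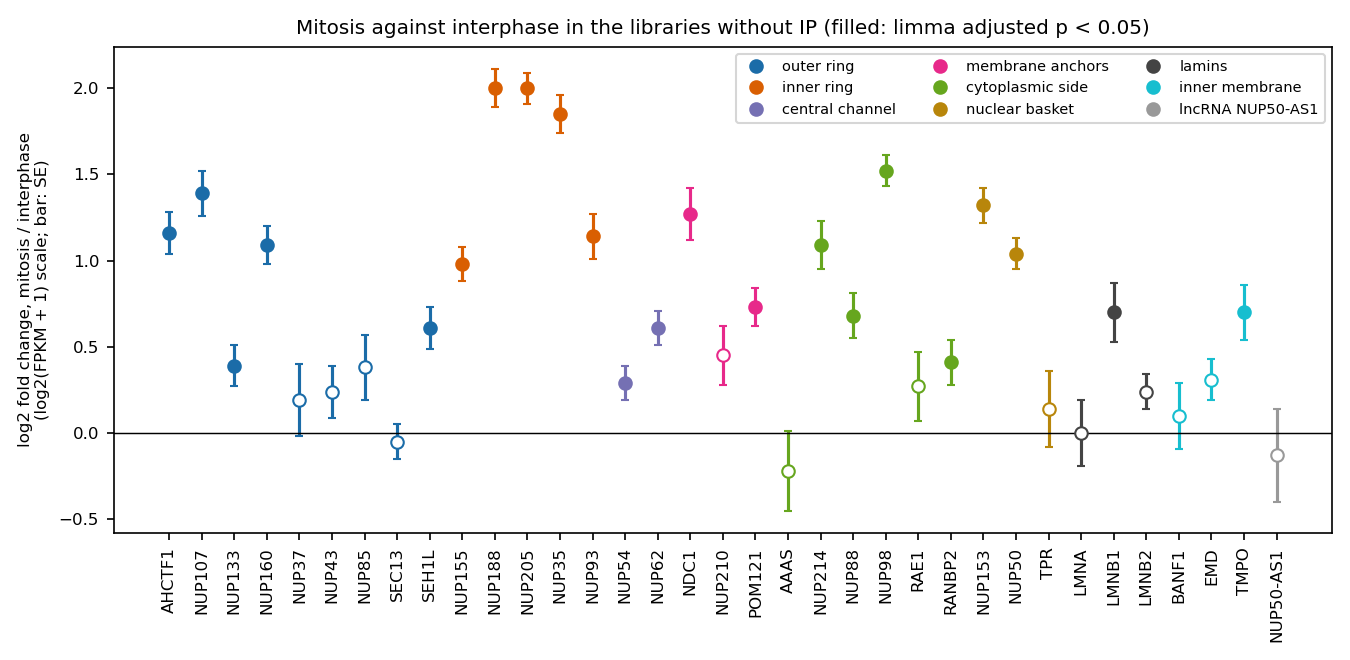
Log2 fold change of each gene between mitosis and interphase in the libraries without IP (log2(FPKM + 1) scale, limma estimate, bars SE, 2 libraries a group), grouped and coloured by role, with filled points for an adjusted p below 0.05. All 5 inner ring genes are filled and lie between 0.98 and 2.00, and no filled point lies below 0.

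The other parts of the pore rose in part. Of the 9 outer ring genes 5 rose, led by NUP107, a stalk subunit of the Y complex, with 1.39, and including NUP133 and AHCTF1, whereas SEC13, which also serves in the COPII coat of secretory vesicles, stood at 64.1 and 63.2 FPKM in interphase and at 59.1 and 63.8 FPKM in mitosis, with overlapping groups. AHCTF1 (chr1:246839098-246931967, minus strand), the gene of ELYS, which seeds new pores on chromatin after mitosis, was at 1.85 FPKM in both interphase libraries and at 5.61 and 5.09 FPKM in mitosis, a log2 fold change of 1.16 (SE 0.12, limma adjusted p = 1.30e-04). NUP133 (chr1:229440260-229508341, minus strand), the foot of the Y complex, moved less, from 8.42 and 9.23 FPKM to 11.3 and 12.4 FPKM (log2 fold change 0.39), and its call was lost when either the first interphase or the second mitotic library without IP was left out (adjusted p up to 0.121), and with length and GC trends removed (0.18, adjusted p = 0.167). Both channel genes were called, NUP62 with 0.61 and NUP54 with 0.29. The call on NUP54 was lost without any 1 of 6 libraries, all but those of the interphase IP (adjusted p up to 0.253), and with median centring (0.21) or quantile normalization (0.18). Of the 3 membrane anchors NDC1 and POM121 rose, NDC1 with 1.27.

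On the cytoplasmic side 4 of 6 genes rose, led by NUP98, an mRNA export platform protein, with 1.52. RANBP2 (chr2:108719481-108785811, plus strand), the giant SUMO ligase of the cytoplasmic filaments, rose by 0.41 (SE 0.13, limma adjusted p = 0.0276), a call lost without the second interphase library or either mitotic library without IP (adjusted p up to 0.179). It was also lost with median centring of the libraries (0.33, adjusted p = 0.0507) and with trends of transcript length and GC content removed (0.09, adjusted p = 0.609). RAE1, an export factor that also acts in the spindle checkpoint, had 9.27 and 9.08 FPKM in interphase and 9.77 and 13.0 FPKM in mitosis, which did not pass (log2 fold change 0.27, adjusted p = 0.277). In the nuclear basket NUP153 rose by 1.32 and NUP50 (chr22:45163841-45188015, plus strand), an importin cofactor, from 17.4 and 16.9 FPKM to 36.4 and 36.2 FPKM. TPR (chr1:186311652-186375693, minus strand), which forms the basket's filaments, was at 5.36 and 3.51 FPKM in interphase and 5.18 and 4.65 FPKM in mitosis, with overlapping groups and a log2 fold change of 0.14 (adjusted p = 0.619).

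The lamina genes differed among themselves. LMNB1 (chr5:126776623-126837020, plus strand), the gene of lamin B1, rose from 32.0 and 26.2 FPKM to 43.3 and 52.8 FPKM (log2 fold change 0.70, SE 0.17, limma adjusted p = 0.00805), a call lost without the second interphase or the second mitotic library (adjusted p up to 0.0625). LMNA (chr1:156082573-156140089, plus strand) had 149 and 112 FPKM in interphase and 133 and 125 FPKM in mitosis, a log2 fold change of -0.00 (SE 0.19, adjusted p = 0.989). LMNB2 (chr19:2427638-2456996, minus strand), the second B-type lamin gene, was at 43.3 and 38.4 FPKM in interphase and 47.9 and 48.9 FPKM in mitosis; the groups did not overlap, but the difference of 0.24 did not pass (adjusted p = 0.0794). TMPO (chr12:98515512-98550379, plus strand) rose from 67.3 and 61.6 FPKM to 92.8 and 119 FPKM, with a log2 fold change of 0.70 (SE 0.16). For the other 2 genes of the inner membrane class, EMD (emerin) had 26.2 and 27.3 FPKM in interphase and 37.8 and 29.6 FPKM in mitosis, and BANF1, a small DNA-bridging protein that binds emerin, had 17.3 and 13.9 FPKM against 15.7 and 17.9 FPKM, and neither passed. Removal of length and GC trends gave higher calls for LMNB2 (0.28, limma adjusted p = 0.0377), EMD (0.82, adjusted p = 6.29e-04) and BANF1 (0.56, adjusted p = 0.0243), and EMD was also called higher without the second mitotic library (0.48, adjusted p = 0.0195).

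Since many members moved together, their promoters were searched for letters that other cell-cycle genes carry, in RefSeq windows of 300 bases on GRCh38.p14, 250 before to 50 after the start, on both strands. Windows were found for 32 of the 35 members (for a gene with several starts, the first listed). The 3 members with the largest rise are shown, 5′ to 3′, with matches in capitals: NUP188 (chr9:128947449-128947748), NUP205 (chr7:135557667-135557966) and NUP35 (chr2:183124193-183124492, from a start inside the GENCODE gene), all on the plus strand.
NUP188: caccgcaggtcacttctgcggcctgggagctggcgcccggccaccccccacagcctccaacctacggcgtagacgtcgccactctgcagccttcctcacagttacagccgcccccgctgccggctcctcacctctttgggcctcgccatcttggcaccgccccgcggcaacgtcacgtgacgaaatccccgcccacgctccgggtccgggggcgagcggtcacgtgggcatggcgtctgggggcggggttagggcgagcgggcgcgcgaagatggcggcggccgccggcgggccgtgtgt
NUP205: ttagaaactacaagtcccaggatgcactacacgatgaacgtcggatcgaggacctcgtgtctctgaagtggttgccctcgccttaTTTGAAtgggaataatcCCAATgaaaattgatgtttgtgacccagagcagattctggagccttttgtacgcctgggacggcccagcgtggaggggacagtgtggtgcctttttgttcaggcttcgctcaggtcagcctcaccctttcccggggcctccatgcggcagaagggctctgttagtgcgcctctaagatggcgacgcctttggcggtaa
NUP35: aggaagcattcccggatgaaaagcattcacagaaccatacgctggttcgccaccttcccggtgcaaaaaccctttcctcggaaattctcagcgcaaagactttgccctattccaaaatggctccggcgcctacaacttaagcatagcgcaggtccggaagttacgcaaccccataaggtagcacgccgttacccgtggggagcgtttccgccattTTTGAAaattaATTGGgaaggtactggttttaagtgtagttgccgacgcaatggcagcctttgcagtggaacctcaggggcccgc
In the NUP205 window the capitals mark a CHR match (cell-cycle homology region, TTTGAA) from base 86 and a CCAAT box from base 103. In the NUP35 window they mark the same CHR letters from base 216 and a CCAAT box read on the other strand (ATTGG) from base 227, and the NUP188 window held none of the letters searched.

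The CHR letters, TTTGAA or TTCGAA, were in 7 of the 32 member windows, 5 of the 21 whose gene rose in mitosis without IP and 2 of the 11 others. They were in 16.6% of all 27305 promoter windows of RefSeq and in 11.4% of the 9858 windows of genes in the table. CCAAT was in 13 member windows, 8 of 21 and 5 of 11, against 35.7% of all windows and 37% of those in the table. The E2F letters TTTCCCGC, TTTGGCGC and TTCCCGCC, of which the first and the third can share bases, were in 3 member windows (LMNA, NUP155 and NUP160), and the NRF1 letters GCATGCGC in 3 (NUP107, NUP62 and NUP50), against 4.61% and 3.27% of all windows and 7.59% and 5.48% of those in the table. A match describes letters in a window and shows no binding.

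The second comparison asked which of these RNAs made up more of the hnRNP U IP than of the libraries without IP in interphase. By limma 18 of 35 members were higher and 10 lower in the IP, where 37.6% of all genes were higher and 37% lower, which is 51.4% and 28.6% of the members. The median log2 fold change was 0.41 for the members and 0.02 over all genes. Both replicate pairs pointed the same way for all 28 calls, which again is no separate support. RANBP2, TPR and AHCTF1 lay at the high end and EMD, BANF1 and SEC13 at the low end.

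RANBP2 was at 4.56 and 3.73 FPKM without IP and at 20.7 and 17.5 FPKM in the IP, 4.6-fold higher (log2 fold change 1.96, SE 0.13, limma adjusted p = 2.01e-06). TPR went from 5.36 and 3.51 FPKM to 17 and 13.4 FPKM (log2 fold change 1.59, SE 0.22, limma adjusted p = 1.58e-04), and AHCTF1 from 1.85 FPKM in both libraries to 7.60 and 6.80 FPKM (log2 fold change 1.53, SE 0.12). The IP libraries of these 3 genes were all above those without IP. The whole basket was higher in the IP, 3 of 3 genes between 1.18 (NUP153) and 1.59 (TPR), with NUP50 rising from 17.4 and 16.9 FPKM to 49.0 and 51.4 FPKM. Of the outer ring 6 of 9 were higher, and of the inner ring 3 of 5, led by NUP205 with 22.2 and 22.1 FPKM in the IP against 7.43 and 8.24 FPKM (log2 fold change 1.39). The smallest of these inner ring calls, NUP188 (0.41), ranged from 0.31 to 0.50 and was not kept in every omission of a single library. NUP35 was not among the higher genes: its IP libraries, at 9.35 and 7.70 FPKM, overlapped those without IP, and its log2 fold change was -0.10 (adjusted p = 0.46), or 0.03 with median centring. With length and GC trends removed it was called lower (-0.80, limma adjusted p = 6.10e-04).

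EMD (chrX:154379197-154381523, plus strand) was at 26.2 and 27.3 FPKM without IP and at 4.06 and 4.22 FPKM in the IP. On the log2(FPKM + 1) scale this was the largest loss among the members (log2 fold change -2.43, SE 0.12, limma adjusted p = 5.82e-07). BANF1 (chr11:66002079-66004149, plus strand) went from 17.3 and 13.9 FPKM to 3.01 and 1.74 FPKM (log2 fold change -2.32, SE 0.19). As a ratio of mean FPKM, IP to no IP, BANF1 was at 0.152 and EMD at 0.155. SEC13 (chr3:10293131-10321178, minus strand) went from 64.1 and 63.2 FPKM to 19.2 and 17.5 FPKM (log2 fold change -1.74, SE 0.10). In each of these 3 genes both IP libraries lay below both libraries without IP. RAE1 (chr20:57351010-57379211, plus strand) was lower as well, at 5.04 and 4.06 FPKM against 9.27 and 9.08 FPKM (log2 fold change -0.88), and so was AAAS, the gene of the pore protein aladin, with -1.36. Of the channel genes NUP54 was higher (0.64) and NUP62 lower (-0.72), and within the inner ring NUP93 was lower (-0.47), though not without the first library without IP (adjusted p = 0.076). Among the lamins, LMNB2 fell to 17.9 and 16.2 FPKM (log2 fold change -1.21, SE 0.10) and LMNA to 95 and 65.9 FPKM (log2 fold change -0.70, SE 0.19, limma adjusted p = 0.00863). The call on LMNA was lost without the first library without IP or the second IP library (adjusted p up to 0.0737) and with quantile normalization (-0.47, adjusted p = 0.0773). LMNB1 had 40.2 and 35.8 FPKM in the IP, above both libraries without IP, but its difference of 0.38 (SE 0.17) did not pass (adjusted p = 0.0709). It passed with median centring (0.50, adjusted p = 0.0211), with length and GC trends removed (0.55, adjusted p = 0.0175) and without either mitotic IP library (adjusted p = 0.0385 and 0.0382). TMPO rose to 96.4 and 93.7 FPKM (log2 fold change 0.55, SE 0.16), a call lost without the second library without IP (adjusted p = 0.0675).

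Transcript length and base composition moved with this comparison. Across the members the log2 fold change in interphase had a Spearman correlation of 0.69 with transcript length (longest annotated form) and of -0.71 with its GC content, and over 13119 genes 0.53 and -0.71. These are descriptions, since the genes share the same 8 libraries. The members had a median longest transcript of 5134 nt, against 3616 nt over all genes, from 1155 nt for BANF1 to 11711 nt for RANBP2. With length and GC trends over all genes removed, 7 members were called higher and 8 lower in interphase, which is 20% and 22.9% of them against 26.3% and 33.8% of all genes, and the members' median was 0.03 against -0.06 over all genes. Of the 28 calls 12 were kept and 16 lost. RANBP2 (0.52, limma adjusted p = 0.0104), NUP50 (0.62) and NUP205 (0.54) kept a higher call, TPR (0.25, adjusted p = 0.362) and AHCTF1 (0.23, adjusted p = 0.13) did not, and SEC13 (-1.31), BANF1 (-0.84) and EMD (-0.77) kept a lower one. The higher calls in the outer ring went from 6 to 0: beside AHCTF1 these were NUP133 (0.13), NUP160 (0.09), NUP107 (0.06), SEH1L (-0.02) and NUP43 (-0.33). Neither channel gene kept its call, NUP54 at 0.21 (adjusted p = 0.0826) and NUP62 at 0.03 (adjusted p = 0.833), nor did AAAS (-0.40, adjusted p = 0.143), LMNA (0.28, adjusted p = 0.181) or TMPO (-0.31, adjusted p = 0.082). The part of length and composition in the result beyond this was not tested.

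**Figure D3:**
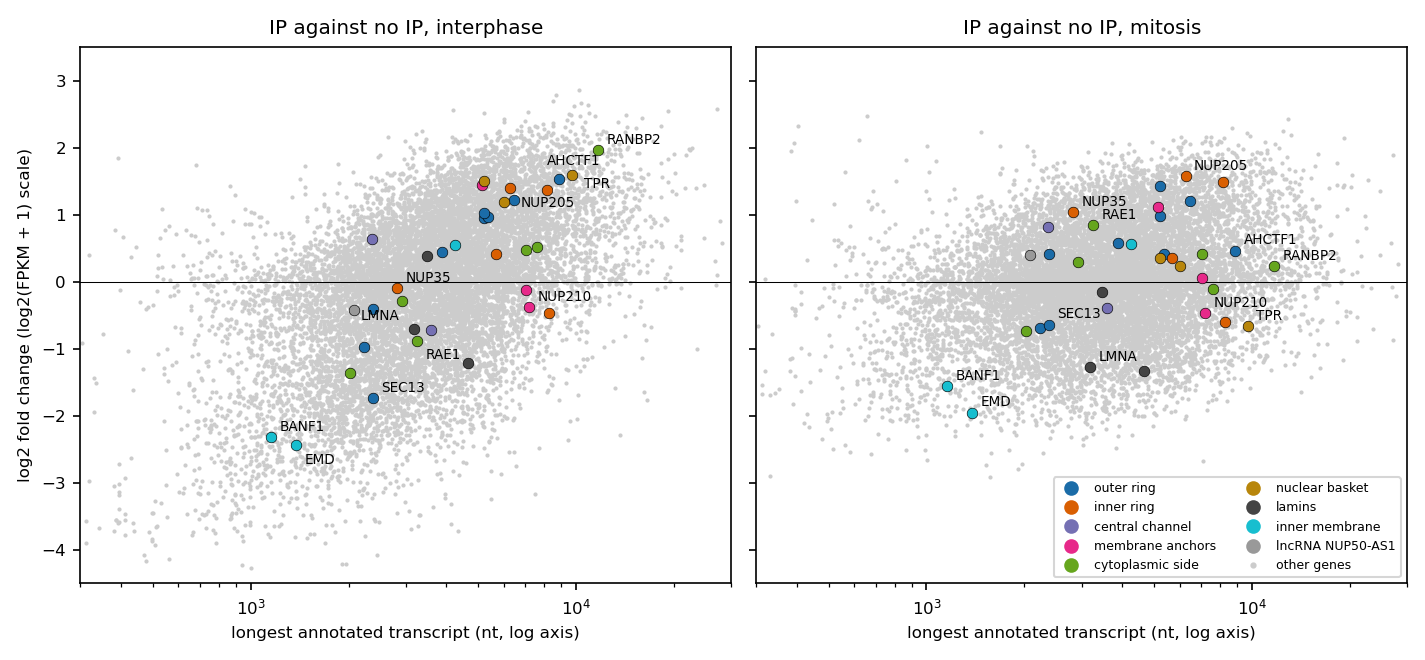
Log2 fold change between IP and no IP (log2(FPKM + 1) scale) against the longest annotated transcript of each gene (nt, log axis), in interphase (left) and mitosis (right), with members coloured by role and other genes in grey; genes outside the axes are not drawn. In interphase the members run from BANF1 and EMD at the short, low end to RANBP2 at the long, high end, and in mitosis RANBP2 and TPR lie near or below 0.

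In mitosis the IP gave 16 members higher and 11 lower than without IP by limma, against 32.8% and 31.7% of all genes, with a median of 0.35 for the members and 0.01 over all genes. With length and GC trends removed the members' median was 0.01, against 0.03 over all genes. Then 12 members were higher and 8 lower, which is 34.3% and 22.9% of them, against 32% and 29.7% of all genes. Quantile normalization gave a median of 0.19. The pairs of replicates pointed the same way in all 27 calls, which is no separate support either. The highest members were scaffold genes. NUP205 was at 34.6 and 33.9 FPKM without IP and at 103 and 105 FPKM in the IP (log2 fold change 1.58, SE 0.09, limma adjusted p = 6.67e-06). NUP155 rose from 33.9 and 32.6 FPKM to 90.5 and 99.3 FPKM (1.48, SE 0.10) and NUP133 from 11.3 and 12.4 FPKM to 30.9 and 36.2 FPKM (1.42, SE 0.12). Of the 5 inner ring genes 4 were higher and NUP93 was lower (-0.60). Among the 4, NUP188 (0.35) lost its call with quantile normalization (0.19, limma adjusted p = 0.147) and ranged from 0.28 to 0.42 with single libraries left out. The anchor NDC1 was higher (1.11) and the anchor NUP210 lower (-0.47), the latter a call lost without any 1 of 5 libraries, all but the interphase IP and the first mitotic IP library (adjusted p up to 0.263).

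The 4 lowest members in the mitotic IP were envelope genes. EMD was at 37.8 and 29.6 FPKM without IP and at 8.09 and 7.71 FPKM in the IP (log2 fold change -1.95, SE 0.12, limma adjusted p = 7.95e-06), and BANF1 at 15.7 and 17.9 FPKM against 5.35 and 4.69 FPKM (-1.56, SE 0.19). LMNB2 went from 47.9 and 48.9 FPKM to 19.5 and 18.0 FPKM (-1.33, SE 0.10) and LMNA from 133 and 125 FPKM to 49.9 and 55.5 FPKM (-1.28, SE 0.19). LMNB1, at 36.8 and 50 FPKM in the IP, overlapped its libraries without IP (-0.15, adjusted p = 0.455). TMPO was higher, at 139 and 175 FPKM (0.56, SE 0.16), a call lost without the first mitotic library without IP or the second IP library (adjusted p up to 0.103) and with length and GC trends removed (0.10, adjusted p = 0.556). Correlations with length and GC content in mitosis were 0.24 and -0.68 over the members and 0.28 and -0.56 over all genes.

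In the 2 phases together, 14 members were higher in the IP in both, where 24.8% of all genes were, and 9 were lower in both, where 23% were: AAAS, NUP62, NUP85, NUP93 and SEC13 of the pore, and EMD, BANF1, LMNA and LMNB2 of the envelope. NUP153, NUP214 and RANBP2 were called higher in interphase alone, against 9.06% of all genes. In the mitotic IP NUP153 (0.24, limma adjusted p = 0.0553) was called with median centring (0.34, adjusted p = 0.014) and with a replicate block (adjusted p = 0.0469). TPR was called higher in the interphase IP but lower in the mitotic one, as were 3.73% of all genes. RAE1 was called the reverse, as were 2.47%. With length and GC trends removed, 3 members (NDC1, NUP188 and NUP205) were called higher in both phases, against 16.8% of all genes, and 5 (BANF1, EMD, LMNB2, NUP93 and SEC13) lower in both, against 17.8%. Whether such pairs of calls differ is answered by the test of the difference itself.

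That test, the effect of the IP in mitosis minus its effect in interphase, called 7 members larger and 7 smaller in mitosis, against 27.2% and 19.9% of all genes. The 7 larger effects became 3 without the first interphase library without IP, and 4 without the second one, the second interphase IP or the second mitotic IP library. Quantile normalization of the libraries moved this split to 4 larger and 9 smaller, against 23.8% and 24.9% of all genes. The median of the members, 0.01 against 0.07 over all genes, turned to -0.15 with this normalization and to -0.02 with median centring. The basket moved as a class: 3 of 3 genes had a smaller effect in mitosis, TPR by -2.25, NUP50 by -1.15 and NUP153 by -0.94. TPR fell from 5.18 and 4.65 FPKM without IP to 2.11 and 3.5 FPKM in the mitotic IP (log2 fold change -0.66, SE 0.22), after the rise in interphase given above, and the difference passed (SE 0.31, limma adjusted p = 5.85e-04). The call on TPR in the mitotic IP was lost without either mitotic library without IP or the first mitotic IP library (adjusted p up to 0.175) and with quantile normalization (-0.49, adjusted p = 0.0876), while the difference kept its call without any library in turn. The deposited interval of TPR spans 79053 bases, against 64042 for the annotated gene. Among others, those of BANF1 (7602 against 2071), NUP62 (44281 against 22939) and NUP88 (156889 against 59198) are also longer than the annotated gene.

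RANBP2 had 6.09 and 5.56 FPKM without IP and 6.84 and 7.24 FPKM in the mitotic IP, and this gap did not pass (log2 fold change 0.24, adjusted p = 0.145). It was called higher with median centring (0.33, adjusted p = 0.0424) and lower with length and GC trends removed (-0.45, adjusted p = 0.0192). Its difference between phases was -1.73 (SE 0.19, limma adjusted p = 1.82e-04). NUP50 rose in mitosis from 36.4 and 36.2 FPKM to 46.6 and 46.3 FPKM (0.35) and AHCTF1 from 5.61 and 5.09 FPKM to 7.27 and 8.26 FPKM (0.46), both less than in interphase, with a difference of -1.06 (SE 0.17) for AHCTF1. Leaving out the second library of either mitotic group ended the mitotic call on AHCTF1 (adjusted p up to 0.0575). Neither mitotic call stood once length and GC trends were removed, AHCTF1 at -0.14 and NUP50 at -0.06, and quantile normalization also ended that on NUP50 (0.12, adjusted p = 0.223). The other genes with a smaller effect in mitosis were NUP160 of the outer ring (-0.55) and NUP214 of the cytoplasmic side (-0.64). The call on NUP160 was lost without the second library without IP of either phase (adjusted p up to 0.0572), and that on NUP214 without any 1 of 5 libraries, all but the second of the interphase IP, the second of mitosis without IP and the first of the mitotic IP (adjusted p up to 0.105).

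RAE1 moved the other way. It was at 9.77 and 13.0 FPKM without IP and at 17.3 and 25.6 FPKM in the mitotic IP (log2 fold change 0.85, SE 0.20, limma adjusted p = 0.00443), against a loss in interphase, and the difference was 1.73 (SE 0.28, limma adjusted p = 0.00117). NUP35, whose interphase value did not pass (-0.10), went from 34.5 and 36.5 FPKM to 70.7 and 77.6 FPKM in mitosis (1.04, SE 0.11), a difference of 1.14 (SE 0.16, limma adjusted p = 5.96e-04). SEC13 was lower in the IP in both phases, but less so in mitosis, where it was at 59.1 and 63.8 FPKM without IP and 39.3 and 38.8 FPKM with it (-0.64), a difference of 1.10 (SE 0.13). NUP37 of the outer ring (0.82), BANF1 (0.76), NUP88 of the cytoplasmic side (0.58) and NUP133 (0.46) completed the 7. Each of these 4 calls was lost without the first library without IP of either phase, and without 3 or 4 others of the 8 libraries (adjusted p up to 0.152 for BANF1). For LMNA the difference of -0.58 did not pass (adjusted p = 0.113), but it did with length and GC trends removed (-0.98, adjusted p = 0.00989), with quantile normalization (-0.95, adjusted p = 0.032) and without the second interphase IP library (-0.84, adjusted p = 0.0266).

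**Figure D4:**
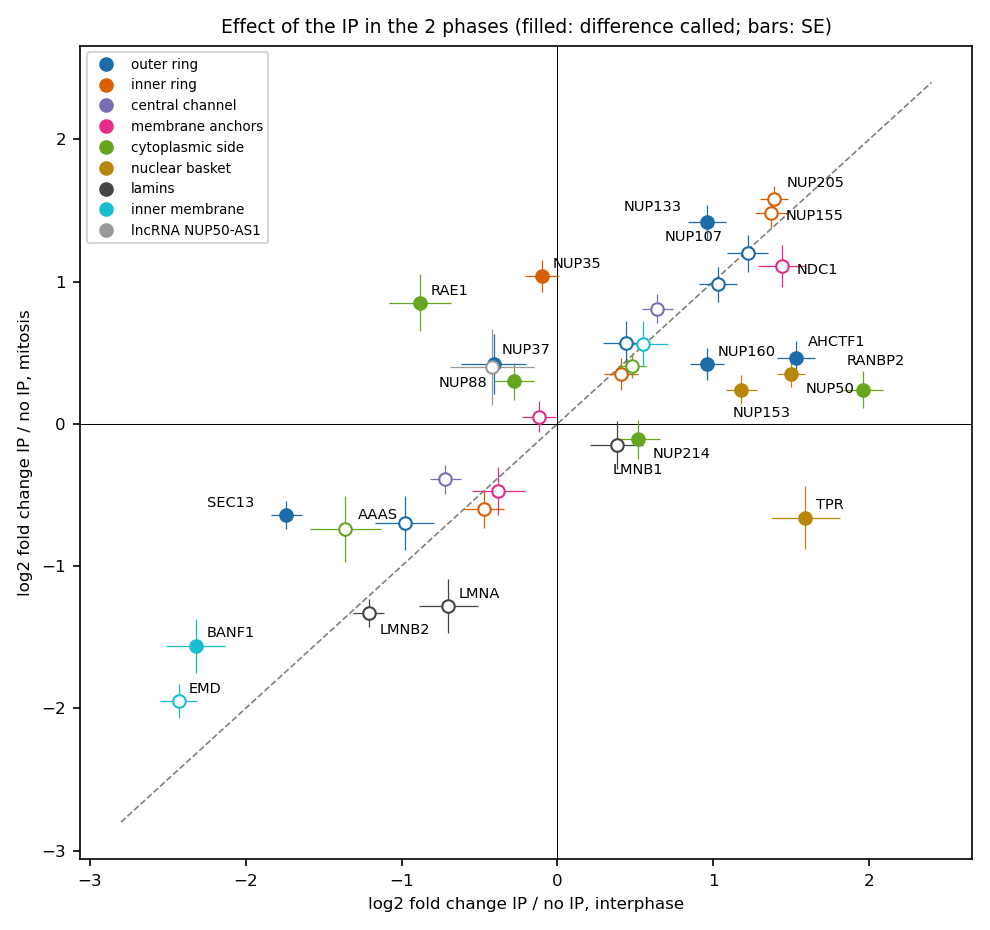
Log2 fold change between IP and no IP in interphase (horizontal) and in mitosis (vertical) for each of the 35 genes (limma, bars SE), coloured by role, filled where the difference between phases passed an adjusted p below 0.05; the dashed line marks equal effects. RANBP2, TPR, NUP50, NUP153 and AHCTF1 lie right of the line and RAE1, NUP35 and SEC13 left of it, while LMNB2, NUP205 and NUP155 lie near it.

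The difference between phases also moved with transcript length: its Spearman correlation with length was -0.71 over the members and -0.47 over all genes, and with GC content 0.13 and 0.42. With both trends removed, TPR (-1.53), RANBP2 (-0.96), NUP50 (-0.69), NUP35 (1.30), RAE1 (1.73) and SEC13 (0.79) kept their calls, as did NUP153, NUP37, NUP88 and NUP133. The 4 calls lost were those on AHCTF1 (-0.37, limma adjusted p = 0.108), NUP214 (-0.35, adjusted p = 0.145), BANF1 (-0.10, adjusted p = 0.774) and NUP160 (-0.08, adjusted p = 0.69). Called only with the trends removed were LMNA, with a smaller effect in mitosis, and NUP107 (0.58), NUP155 (0.76), NUP205 (0.68) and SEH1L (0.47), with a larger one. The part of length in the difference was not tested beyond this. The same trends moved the comparison of mitosis with interphase without IP less: there the correlation with length was 0.56 over the members and 0.28 over all genes. With the trends removed 25 members were called higher and 0 lower there, against 26.9% and 24.9% of all genes. Of the 22 calls there 20 were kept, and those on RANBP2 and NUP133 were lost.

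Within the IP, mitosis against interphase gave 25 members higher and 3 lower by limma, against 35.8% and 25.6% of all genes, with a median of 0.71 for the members and 0.08 over all genes. Median centring moved the median over all genes from 0.08 to -0.03 here, and from 0.02 to 0.14 for the IP in interphase. NUP35 went from 9.35 and 7.70 FPKM in the interphase IP to 70.7 and 77.6 FPKM in the mitotic IP, 8.7-fold, the largest rise (log2 fold change 2.98, SE 0.11, limma adjusted p = 8.45e-07). NUP205 followed with 2.18 (SE 0.09) and RAE1 with 2.00 (SE 0.20). The 3 lower genes were TPR (-2.11, SE 0.22), RANBP2 (-1.32, SE 0.13) and LMNA (-0.58, SE 0.19, limma adjusted p = 0.0266), the last a call lost without the first library of either IP group (adjusted p up to 0.173).

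Set beside the libraries without IP, 18 members rose in mitosis both with and without IP, among them all 5 inner ring genes, where 15.4% of all genes rose in both. Called higher in the IP but not without it were 7 members, against 14.3% of all genes: BANF1, EMD, NUP37, NUP50-AS1, NUP85, RAE1 and SEC13. With length and GC trends removed 21 members rose both with and without IP, against 17.3% of all genes. They then included BANF1, EMD and NUP85 (0.62 without IP, limma adjusted p = 0.018). Median centring gave 15 members rising in both and quantile normalization 15, against 12.4% and 13.3% of all genes. The call on NUP50-AS1 (0.69, limma adjusted p = 0.049) was lost with median centring (0.58), quantile normalization (0.64) or length and GC trends removed (0.57). NUP85 (0.66) was at 0.44 without the second interphase IP library and at 0.45 without the second mitotic one. AHCTF1, LMNB1 and NUP50 were called higher without IP but not in the IP, against 7.16% of all genes. With length and GC trends removed AHCTF1 was called higher in the IP as well (0.51, limma adjusted p = 0.00521). NUP50 was at 49.0 and 51.4 FPKM in the interphase IP and 46.6 and 46.3 FPKM in the mitotic IP. This change (log2 fold change -0.11, adjusted p = 0.306) passed only with quantile normalization (-0.36, adjusted p = 0.00506). RANBP2 was called higher without IP, a call lost under the settings given above, and fell in the IP. Not called in either were AAAS, LMNB2, NUP210 and NUP43, against 22.7% of all genes. Without IP NUP210 (0.45, limma adjusted p = 0.054) was called with quantile normalization (0.52), a replicate block, or length and GC trends removed (0.41, adjusted p = 0.0485). In the IP NUP43 (0.37, adjusted p = 0.0526) was called with a replicate block or with these trends removed (0.53, adjusted p = 0.00843). Both were also called with a mean of at least 1 FPKM. The test of the difference given above is also the test of these contrasts, since both subtract the same 4 group means. It did not pass for EMD (0.48, adjusted p = 0.0501), NUP50-AS1 (0.82, adjusted p = 0.106) or NUP85 (0.28, adjusted p = 0.415). NUP50-AS1 passed with a replicate block (limma adjusted p = 0.0468). EMD passed with a pseudocount of 0.1 (0.60), a mean of at least 1 FPKM (adjusted p = 0.0416) or a replicate block (adjusted p = 0.0418). EMD turned to -0.43 with length and GC trends removed. For LMNB1 it did not pass (-0.53, adjusted p = 0.101), except with quantile normalization (-0.72, adjusted p = 0.0361) and without the second mitotic IP library (-0.75, adjusted p = 0.0277).

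Other genes of transport, envelope and reassembly were counted from lists. Of 31 transport factors (importins, exportins and the Ran system) 21 rose and 1 fell in mitosis without IP, where 26.2% of all genes rose and 25.5% fell, and their median was 0.66. The importin IPO11 went from 5.62 and 5.21 FPKM to 16.5 and 17.8 FPKM (limma adjusted p = 1.29e-05), and the mRNA export cofactor NXT1 fell from 25.1 and 27.2 FPKM to 5.72 and 5.04 FPKM (-2.09). In the interphase IP, where 37.6% of all genes were higher and 37% lower, 16 transport factors were higher and 11 lower, led by the exportin XPO4 (1.92) and by NXT1 (-2.74). With length and GC trends removed 4 were higher, where 26.3% of all genes were. These counts and those of the pore genes themselves describe the lists, and no test sets a list apart from other genes.

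Of 16 further envelope genes (SUN, nesprin, LEM-domain and torsin genes and others) 9 rose and 0 fell in mitosis without IP, with 1 lower at an unadjusted p below 0.05 and a median of 0.36, and the inner membrane gene NEMP1 rose from 14.5 and 13.5 FPKM to 24.3 and 27.7 FPKM (0.85). Leaving out the second interphase library without IP gave 3 in place of 9. In the interphase IP 5 were higher, led by the nesprin gene SYNE2 (1.89), and 8 lower, led by LPCAT3 (-1.64). Of 13 genes of envelope reassembly (ESCRT-III, spastin, VRK1, phosphatase subunits and others) 3 rose and 4 fell in mitosis without IP (median 0.06), and 2 fell without either interphase or the second mitotic library without IP. VRK1, the kinase that releases BANF1 from DNA, rose by 1.21, and the ESCRT-III gene CHMP2A fell from 51.3 and 50.6 FPKM to 27.2 and 27.7 FPKM (-0.87). In the interphase IP 5 of them were higher, led by the severing enzyme SPAST (1.64), and 7 lower, led by CHMP2A (-2.36). Of 8 pore genes with other symbols 4 rose and 1 fell in mitosis without IP. NUPL1, the channel protein NUP58 under its older symbol, rose from 25.3 and 25.5 FPKM to 59.6 FPKM in both libraries (limma adjusted p = 6.22e-05), while DDX19B, a helicase of the cytoplasmic filaments, fell by 0.50, a call lost without the second interphase or either mitotic library without IP. In the interphase IP 1 of the 8 was higher (NUPL1, 0.99) and 3 were lower, led by CETN2 (-0.91).

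In the mitotic IP against no IP, where 32.8% of all genes were higher and 31.7% lower, 13 transport factors were higher and 9 lower, and 7 reassembly genes were higher and 5 lower. Of the further envelope genes 3 were higher and 8 lower, the latter 4 without the second mitotic library without IP and 5 without the second mitotic IP library, and of the other pore genes 2 were higher and 3 lower. Within the IP, where 35.8% of all genes rose and 25.6% fell, 19 transport factors rose and 3 fell from interphase to mitosis, as did 10 and 3 of the further envelope genes and 7 and 2 of the reassembly genes.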

How the data were processed

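RNA was measured in 8 libraries, 2 in each of 4 groups taken from the sample titles. The authors deposited FPKM values, per the file headers, for 13471 genes on hg38. TopHat and StringTie were used, per the submitters' processing notes, which give no versions, settings or roles. The sources used here do not give whether counting used strand or how shared reads were split. No deposited value is 0. The deposited lncRNA table was not used here.

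From these values log2(FPKM + 1) was fitted for all genes with limma 3.58.1 in R 4.3.3 (eBayes with trend, 4 group coefficients, 4 residual degrees of freedom, no filter, no replicate block), with Benjamini-Hochberg adjustment over all genes within each of 5 comparisons. A call is an adjusted p below 0.05. The log scale understates changes, most near or below 1 FPKM and still at a few FPKM. For RANBP2 in the interphase IP, 4.6-fold in mean FPKM became a log2 fold change of 1.96. Coordinates, transcript length and GC content come from GENCODE 29 (GRCh38), matched by symbol or older symbol (97.4% of genes).

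Named members are the 3 largest calls in each direction of each comparison with both replicate pairs in the same direction, the 2 highest genes and the lamins. Others are extremes of their role or stand in counts of 5 or fewer. Members, lists and comparisons were chosen with earlier results of these data known. Alternatives were a pseudocount of 0.1, a mean of at least 1 FPKM, median centring, quantile normalization, a replicate block, removal of length and GC trends, and leaving out each library.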

Additional observations from a re-analysis of the deposited data

Results flagged for a closer look

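In 14 members the effect of the IP differed between mitosis and interphase by limma's test of that difference (adjusted p below 0.05). It was larger in mitosis in 20% of the members and smaller in 20%, against 27.2% and 19.9% of all genes. The effect was smaller in mitosis for TPR by a log2 difference of -2.25, RANBP2 by -1.73, NUP50 by -1.15, AHCTF1 by -1.06, NUP153 by -0.94, NUP214 by -0.64 and NUP160 by -0.55. It was larger in mitosis for RAE1 by 1.73, NUP35 by 1.14, SEC13 by 1.10, NUP37 by 0.82, BANF1 by 0.76, NUP88 by 0.58 and NUP133 by 0.46. Of the 14 calls 8 stood when any single library was left out: those on TPR, RANBP2, NUP50, AHCTF1, NUP153, RAE1, NUP35 and SEC13.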

How the results depend on the processing

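A pseudocount of 0.1, the FPKM filter and the replicate block moved no count of called members by more than 1.5 times. The labels tie replicates of different groups by number alone. Correlations of same-numbered deviations between groups were all positive, from 0.088 to 0.528, the highest between the mitotic groups with and without IP. Whether same-numbered libraries share a source was not tested. With the replicate block the higher and lower members numbered 18 and 10 for the IP in interphase, 17 and 11 for the IP in mitosis, 9 and 7 for the difference, 23 and 0 when mitosis was set against interphase without IP and 26 and 3 within the IP, and it ended none of the members' calls. In the same order, the shares of all genes were 38.7% and 38.3%, 34.3% and 33.3%, 29.6% and 21.7%, 28.4% and 27.9%, and 37.8% and 27%. With length and GC trends removed, 7 members were higher in the interphase IP (18 before), against 26.3% of all genes (37.6% before). Called log2 values that then changed sign were, in the interphase IP, LMNA (0.28), TMPO (-0.31), NUP62 (0.03), SEH1L (-0.02), NUP43 (-0.33) and NUP98 (-0.06), in the mitotic IP AHCTF1 (-0.14), NUP50 (-0.06) and NUP62 (0.08), and in the difference BANF1 (-0.10). Among values not called before, 2, 3 and 8 members changed sign in these comparisons, 5 in mitosis without IP and 1 in mitosis in the IP, among them RANBP2 in the mitotic IP (-0.45, limma adjusted p = 0.0192), LMNA (0.15), SEC13 (0.13) and TPR (-0.15) in mitosis without IP, and NUP50 in mitosis in the IP (0.14). The cause was not tested. Of the lists, it left 4 of 16 transport factors higher in the interphase IP, 2 of 5 further envelope genes higher and 5 of 8 lower, and 4 of 7 reassembly genes lower. Median centring turned NUP35 in the interphase IP to 0.03 and the members' median difference to -0.02. Quantile normalization turned that median to -0.15, and BANF1 (-0.01) and LMNA (0.04) in mitosis without IP, and left 4 of 7 larger differences. Leaving out single libraries gave 3 to 7 larger differences and a median difference of -0.04 to 0.14, NUP35 in the interphase IP at -0.22 to 0.03, LMNB1 in the mitotic IP at -0.37 to 0.06, and in mitosis without IP BANF1 at -0.05 to 0.25, LMNA at -0.21 to 0.20, SEC13 at -0.10 to 0.00 and TPR at -0.10 to 0.39. Calls kept in each omission were 22 of 28 for the IP in interphase, 19 of 27 for it in mitosis, 8 of 14 in the difference, 18 of 22 in mitosis without IP and 24 of 28 in mitosis in the IP. Where an omission left a group with 1 library, that library is assumed to vary like the other groups. With 2 libraries a group and depth unknown, small differences could not be resolved.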
